A study of Mus musculus with 9 samples.

Results

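The 9 genes described here, Krt5, Krt14, Trp63, Sox2, Pax6, Kit, Neurog1, Neurod1 and Hes6, mark the basal stem cells and neuronal progenitors of the olfactory epithelium. They were chosen by name as known markers of these cells and are 9 of the 24421 genes with raw counts. RNA was sequenced from the whole main olfactory epithelium (MOE), the sensory tissue of the nasal cavity, of mice at postnatal day 14, whose strain the labels give as C57BL/6. The methods name C57BL/6J zygotes for the editing and a mixed background with 129 for the study's lines. They carried both copies (WT), 1 copy (het, TAAR enhancer 2 +/-) or no copy (homo, TAAR enhancer 2 -/-) of TAAR enhancer 2, an element between Taar6 and Taar7a in the cluster of trace amine-associated receptor genes. There were 3 libraries per genotype, numbered 1, 2 and 3 in the labels. The element was removed by CRISPR-Cas9 editing, 1 line was established, the 3 genotypes were littermates according to the methods, and animals of both sexes were used in the study.

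Olfactory sensory neurons are replaced throughout life from stem cells at the base of the epithelium. Horizontal basal cells lie flat on the basement membrane and are mostly quiescent, whereas the globose basal cells above them divide and pass through transit-amplifying and immediate precursor stages before they become immature and then mature neurons. Krt5 and Krt14, a keratin pair, and the transcription factor Trp63 mark horizontal basal cells. Sox2 and Pax6 are transcription factors of early globose basal cells that are also made by horizontal basal cells and sustentacular (supporting) cells, and Kit is a receptor tyrosine kinase of globose basal cells. The basic helix-loop-helix factors Neurog1 and Neurod1 and the Hes-related factor Hes6 belong to committed neuronal precursors. In RNA from a whole tissue, fewer cells of a type and less RNA per cell cannot be told apart.

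The comparisons asked whether these genes differed between genotypes in mice that lacked 1 or both copies of an enhancer of olfactory receptor genes. None of the 9 genes differed between genotypes past the threshold, and Krt5 and Krt14 had the lowest fitted levels in het and homo relative to WT. The most visible pattern did not follow genotype. For 8 of the 9 genes, all but Hes6, the library numbered 1 was the highest of its genotype in WT, het and homo alike.

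Library totals ranged from 20527992 to 32262005 counts, with a median of 26174388, and the libraries numbered 1 had the lowest total in each genotype. As a check of the labels, Taar6, a receptor gene beside the deleted element, ranged from 158 to 168 normalized counts in WT and from 15.4 to 18.7 in homo, a log2 difference of −3.28 (SE 0.18, adjusted p 3.2e-04 by the quasi-likelihood test of edgeR, adjusted after Benjamini and Hochberg). Taar7a, on the other side, ranged from 75.4 to 101 in WT and from 15.9 to 18.1 in homo, a log2 difference of −2.33 (SE 0.25, edgeR adjusted p 0.0233). Normalized counts are raw counts divided by 1 size factor per library. The p-values below set a difference between genotypes against the spread between libraries of the same genotype.

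Markers of the tissue were present in every library. The sum over the mature neuron markers Omp, Cnga2, Gnal and Adcy3 ranged from 125718 to 145523 normalized counts, and that over the 5 sustentacular markers from 137229 to 196046. All 9 genes had enough counts to be tested. The lowest raw count of any of them was 145, for Neurog1, where counting error alone is 8.30% of the value. For Neurog1 this was small beside the spread between libraries, which in WT was 87.0% of the mean (SD, n = 3). It was not small for every gene. For Pax6, counting error was 2.83% at the lowest count, and the SD in het was 5.24% of the mean.

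To compare levels between genes, CPM (the count a gene would have at a fixed total) was divided by the length of all annotated exons in kilobases. On this scale the median over the 9 libraries was highest for Sox2, at 27.7 CPM per kb, and Hes6 followed at 27.1. Krt5 (17.2), Neurod1 (16.5) and Krt14 (10.7) came next. Kit (5.80), Pax6 (4.76), Neurog1 (4.37) and Trp63 (3.30) were the lowest 4. Neighbours in this order overlapped over the libraries except at 1 step: the lowest value of Krt14, 8.75 CPM per kb, was above the highest of Kit, 7.59. The exon lengths of Pax6 (11694 bases), Kit (8911) and Trp63 (8391) include every annotated isoform. Division by the length of a shorter single transcript would give higher per-length levels for these genes. Levels of single transcripts were not estimated.

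The genes are spread over 8 chromosomes of the mouse build GRCm38, and all are annotated as protein-coding. Krt5 lies on the minus strand at chr15:101707070-101712898, and Krt14, also on the minus strand, at chr11:100203162-100207548. Of the 50-base windows of their exons, 91.5% for Krt5 and 86.1% for Krt14 are found in no other gene, the shared windows being mostly those of Krt6a for Krt5 and of Krt16 for Krt14. For Neurod1 (chr2:79452521-79456751, minus strand) the share is 94.3%, the rest overlapping Cerkl on the same strand. Sox2 (chr3:34650405-34652461, plus strand) sits inside Sox2ot on the same strand, and Pax6 (chr2:105668900-105697364, plus strand) overlaps the antisense gene Pax6os1. How reads of such regions were assigned is not stated, so counts of these 5 genes carry that uncertainty.

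The 250 bases before the transcription starts of these genes were searched on both strands for the E-box CAGCTG. Basic helix-loop-helix factors such as Neurog1 and Neurod1 can bind this kind of site. RefSeq promoter windows of GRCm38.p6 were held for 8 of the 9 genes. The motif was found before Krt5 and Hes6 and before none of the other genes searched. It is in 13.0% of the 32851 promoter windows of that length. Hes6 has a pair of annotated starts and holds the motif before each, and the match before the upstream start is shown. Both stretches are given 5′ to 3′ on the minus strand, the strand of both genes, with the motif in capitals. They are the stretch at chr15:101712995-101713024 for Krt5 and at chr1:91414192-91414221 for Hes6.
Krt5: tgggtgagctcaCAGCTGccccccaggcat
Hes6: cggaagcggctgCAGCTGccaactgtcacg
The sequence TATAA, searched in the same way, was found before Hes6 and Neurod1 and is in 22.8% of the windows. A match is a description of the letters only. Among the 8 genes, CG dinucleotides in the window ranged from 2 for Krt5 and 5 for Krt14, below the median of 6 over all windows, to 29 for Neurog1.

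Krt5, the keratin of horizontal basal cells, stood at 2545, 957 and 1088 normalized counts in the WT libraries numbered 1, 2 and 3, at 1582, 948 and 861 in het and at 1603, 870 and 871 in homo. In each genotype the library numbered 1 was well above the other two, and WT 1 was the highest of all 9. The WT mean was 1530 ± 882, the het mean 1131 ± 394 and the homo mean 1115 ± 423 (SD, n = 3 each). In homo against WT the log2 difference of Krt5 was −0.45 (95% interval −1.37 to 0.48, edgeR p 0.304), an interval that spans 0.386 to 1.39 times the WT level. It was 0.15 without WT 1 and −0.81 without homo 1, each of which leaves the other high library in place. Within number 1 it was −0.67 and within the other numbers −0.23, and with the replicate number as a block −0.38 (95% interval −0.65 to −0.10, edgeR adjusted p 0.725).

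Krt14, the keratin that pairs with Krt5, had 742, 478 and 678 normalized counts in WT, 533, 388 and 480 in het and 534, 405 and 439 in homo. WT 1 and WT 3 were above every het and homo library, while WT 2 lay among them. The log2 difference of Krt14 was −0.45 in homo against WT (SE 0.19, 95% interval −0.89 to −0.016, edgeR p 0.0439) and −0.44 in het against WT (SE 0.19, edgeR p 0.0507). This was the lowest p of any of the 9 genes, and after adjustment over all genes it did not pass. The homo against WT difference of Krt14 was −0.47 within number 1 and −0.43 within the other numbers.

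Trp63, the transcription factor that keeps horizontal basal cells undifferentiated, had 839, 703 and 778 normalized counts in WT, 888, 674 and 614 in het and 903, 548 and 579 in homo. The libraries numbered 1 were close to each other in the 3 genotypes, and those numbered 2 and 3 were lower in homo than in WT. The log2 difference of Trp63 in homo against WT was −0.18 (95% interval −0.66 to 0.29, edgeR p 0.407), made up of 0.11 within number 1 and −0.39 within the others. In a fit of only the libraries numbered 2 and 3, Trp63 had the lowest p of the 9 genes, 0.0129, with a lowest adjusted p over these genes of 0.685 by the edgeR quasi-likelihood test.

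**Figure D1:**
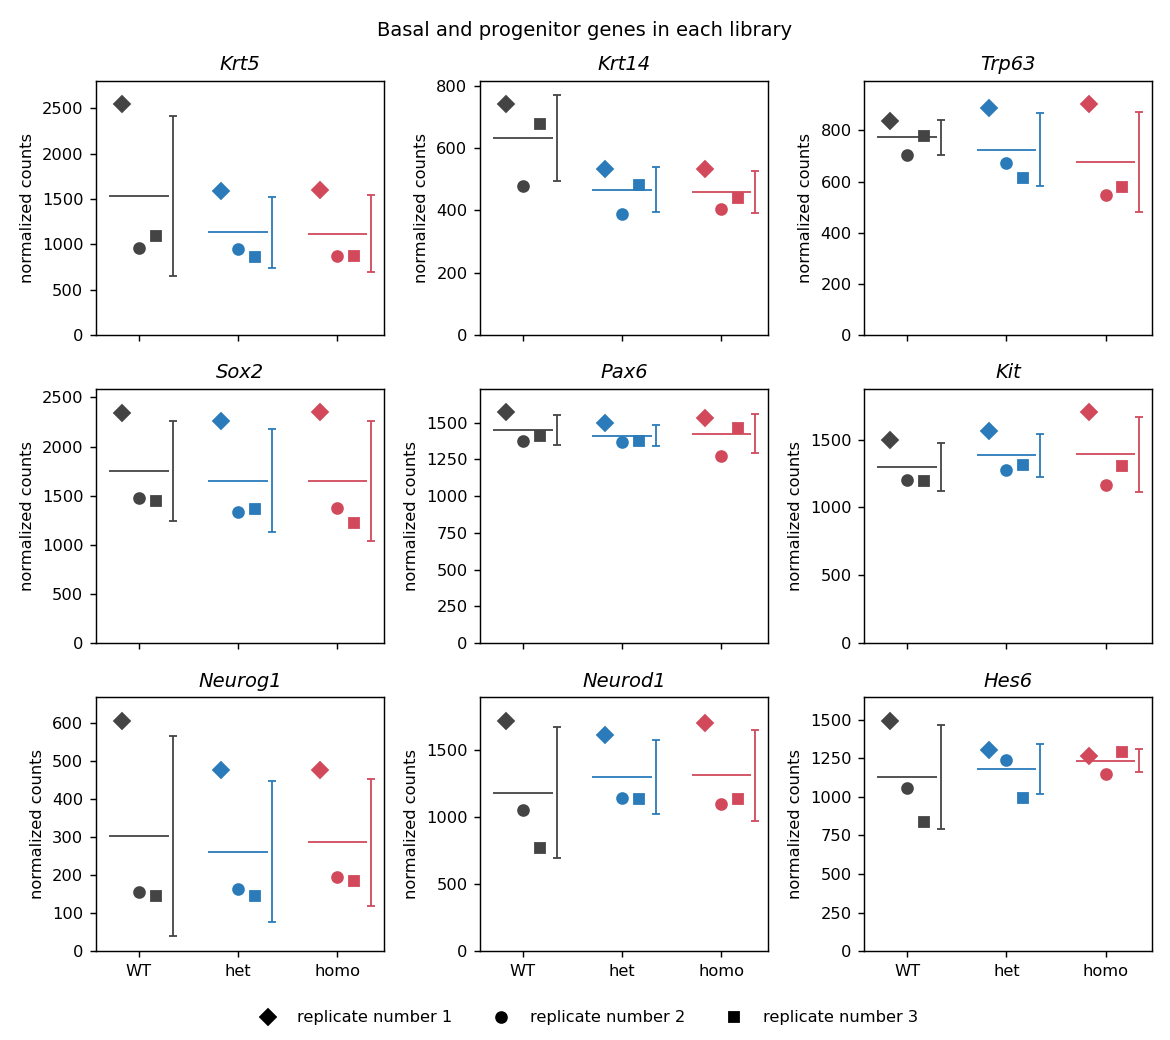
Normalized counts (vertical axes, starting at 0) of the 9 basal and progenitor genes in WT (grey), het (blue) and homo (red) libraries, with diamonds, circles and squares for replicate numbers 1, 2 and 3. Horizontal lines are means and vertical bars ± SD (n = 3); the diamond is the highest point of each genotype in every panel but that of Hes6, and the genotypes overlap in every panel.

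Sox2, a factor of stem and supporting cells, had 2339, 1480 and 1442 normalized counts in WT, 2255, 1332 and 1368 in het and 2348, 1377 and 1223 in homo. The libraries numbered 1 formed a group of at least 2255 and the others lay at or below 1480, with no visible order of genotypes. Its log2 difference in homo against WT was −0.08 (95% interval −0.77 to 0.61, edgeR p 0.798).

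Pax6, a paired-box factor of globose basal and supporting cells, was the steadiest of the 9 genes. It had 1570, 1377 and 1406 normalized counts in WT, 1498, 1365 and 1374 in het and 1535, 1276 and 1461 in homo. Its highest library was 1.23 times its lowest. The log2 difference of Pax6 in homo against WT was −0.02 (95% interval −0.25 to 0.21), which bounds it between 0.842 and 1.16 times the WT level, the narrowest interval of the 9 genes.

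Kit, the receptor for stem cell factor, had 1500, 1201 and 1192 normalized counts in WT, 1567, 1277 and 1313 in het and 1701, 1163 and 1308 in homo. The number 1 library was highest in each genotype, and the other 6 libraries lay within 1163 to 1313. Its log2 difference in homo against WT was 0.11 (95% interval −0.26 to 0.47, edgeR p 0.521). Kit is also made by mast cells and melanocytes. The summed markers of these cells were at most 59.8 and 59.5 normalized counts in any library, and Kit itself had at least 1163. The part of these cells in the level of Kit was not tested.

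Neurog1, which commits globose basal cells to the neuronal fate, varied most. It had 607, 157 and 144 normalized counts in WT, 476, 163 and 146 in het and 478, 195 and 185 in homo. The 3 libraries numbered 1 were far above the other 6, none of which passed 195. The log2 difference of Neurog1 in homo against WT was −0.07 with a 95% interval of −1.57 to 1.44 (edgeR p 0.922), so differences from 0.336 to 2.71 times the WT level were not distinguished from none. With a term for number 1 in the edgeR fit the difference became 0.10 (95% interval −0.23 to 0.44), or 0.852 to 1.36 times the WT level. Within number 1 it was −0.34 and within the other numbers 0.34.

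Neurod1, expressed after Neurog1 in immediate precursors, had 1720, 1052 and 769 normalized counts in WT, 1615, 1144 and 1134 in het and 1706, 1095 and 1137 in homo. WT 3 was the lowest library and the 3 libraries numbered 1 were the highest. The log2 difference of Neurod1 in homo against WT was 0.16 (95% interval −0.50 to 0.83, edgeR p 0.596), with −0.01 within number 1 and 0.31 within the others.

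Hes6, a Hes-family protein that favours neuronal differentiation, had 1493, 1060 and 835 normalized counts in WT, 1304, 1236 and 994 in het and 1261, 1149 and 1290 in homo. WT 1 was the highest and WT 3 the lowest library, and in homo the library numbered 3 exceeded number 1. Its log2 difference in homo against WT was 0.14 (95% interval −0.31 to 0.58, edgeR p 0.509).

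In homo against WT, 0 of the 9 genes were called (edgeR adjusted p under 0.05 and a fold change over 1.5), where 0.0202% of the 19775 tested genes were called. At an unadjusted edgeR p under 0.05 there was 1 of them, Krt14, beside 682 of the 19775 tested genes, and DESeq2 and limma-voom also called 0. The median log2 difference over the 9 genes was −0.07, beside 0.004 over all tested genes, and 3 of the 9 were above 0. In het against WT, 0 of the 9 were called, the background was 0%, and 0 had an unadjusted edgeR p under 0.05. There the log2 differences ran from −0.44 for Krt14 to 0.14 for Neurod1, with −0.44 for Krt5 (95% interval −1.36 to 0.49) and −0.21 for Neurog1 (95% interval −1.71 to 1.30). DESeq2 and limma-voom called 0 of them in het against WT.

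Between homo and het, which share no WT library, the log2 differences of the 9 genes were small, from −0.09 for Trp63 to 0.14 for Neurog1. The edgeR test called 0 of them, where 0.00506% of tested genes were called, 0 had an unadjusted p under 0.05, and DESeq2 and limma-voom called 0. The 95% intervals still allowed −0.94 to 0.91 for Krt5 and −1.37 to 1.65 for Neurog1. A test of any difference among the 3 genotypes called 0 of the 9 genes at a background of 0.00506%. The lowest unadjusted p in it was 0.0692, for Krt14, and the DESeq2 likelihood ratio test and limma-voom also called 0. A p above the threshold does not show that levels were equal.

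The libraries of the genotypes overlapped for each of the 9 genes in each comparison. The share of all tested genes whose libraries did not overlap in normalized counts was 5.56% in homo against WT, 3.94% in het against WT and 4.11% in homo against het. The het and homo comparisons against WT share their WT libraries, so the like values of Krt5 and Krt14 in both are not separate observations.

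**Figure D2:**
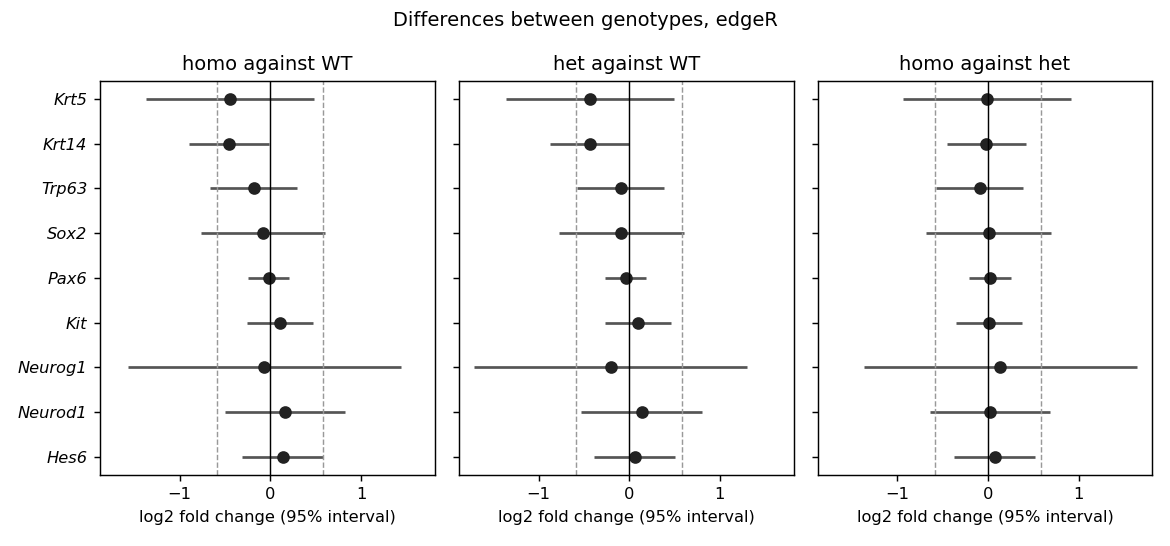
Log2 fold changes of the 9 genes from the edgeR fit (points) with 95% intervals (bars) for homo against WT, het against WT and homo against het; dashed lines mark 1.5-fold in either direction. The interval lies below 0 only for Krt14 in homo against WT (−0.89 to −0.016), and the widest intervals are those of Neurog1 and Krt5.

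Other genes of these cells were grouped in lists. Of 10 other genes of horizontal basal cells, 0 were called in homo against WT, 0 lay above 0 and 3 had an unadjusted p under 0.05, with a median log2 difference of −0.34. Over the 19775 tested genes 10130 lay above 0 and 682 had such a p. Icam1, an adhesion molecule, had both the lowest p and the largest difference of that list, −1.73 (SE 0.62, edgeR p 0.0229). Its WT libraries held 217, 263 and 1243 normalized counts and its homo libraries 206, 189 and 123, so that the WT mean was carried by WT 3. Of 12 other globose basal and precursor genes, 0 were called and 9 were above 0, with a median of 0.06, and WT 3 had the lowest sum of that list, 17653 normalized counts against at least 25067 in the other 8 libraries. Mybl1, a transcription factor, had the largest difference among those with a mean of at least 1 CPM, 0.25 (SE 0.25). In het against WT, and in homo against het, 0 genes of either list were called.

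Notch signals between neighbouring cells hold progenitors undifferentiated, and 0 of 14 Notch pathway genes were called in homo against WT. Their median log2 difference was −0.06, and 2 of the 14 were above 0. Hes5, a Notch target, had the largest difference, −0.58 (95% interval −1.39 to 0.23), at a mean of only 1.43 CPM. Among 9 niche signals, which include Kitl, the ligand of Kit, and the BMP, FGF and activin families, 0 were called and the median was −0.09. Inhba, an activin subunit, had the lowest p there (−0.62, edgeR p 0.0718). Of 8 proliferation genes, 0 were called and 8 were above 0, with a median of 0.19. WT 3 stood apart in this list, with a sum of 11317 normalized counts against 15487 to 17752 in the other 8 libraries. Mki67, a marker of cycling cells, was at 0.29 (SE 0.18) and Ccnb1, a mitotic cyclin, at 0.27 (SE 0.14). In het against WT and in homo against het, 0 genes of these 3 lists were called either. Across all 5 lists DESeq2 and limma-voom called 0 genes in each comparison.

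Markers of stratified squamous epithelium, which also makes Krt5, Krt14 and Trp63, had fitted differences of the same sign as the horizontal basal cell genes. Of the 7, 0 were called in homo against WT and 1 was above 0, with a median log2 difference of −0.96. Their summed normalized counts were between 129 and 1461 in WT, between 85.9 and 335 in het and between 82.3 and 518 in homo. Sprr1a, a cornified envelope protein, had the lowest p (−1.93, edgeR p 0.0128), and the keratin Krt6a the largest difference, −2.55 (95% interval −5.90 to 0.80). Krt6a had 421, 1.57 and 21.4 normalized counts in WT 1, WT 2 and WT 3, so that its WT mean was carried by WT 1. The part of squamous cells in the levels of Krt5 and Krt14 was not tested.

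Among the other marker lists, 0 genes were called in homo against WT. The median log2 difference was 0.13 over the 5 immature neuron markers, with Gng8 at 0.17 and Stmn2 at 0.15. It was 0.08 over the mature neuron markers, with Adcy3 at 0.09, and 0.21 over the sustentacular markers, with Cyp2g1 at 0.37 and Ermn at 0.22. It was −0.21 over the ciliated markers, with Dnah5 at −0.56, −0.03 over the microvillous and ionocyte markers, with Ascl3 at −0.06, −0.41 over the mast cell markers and −0.16 over the melanocyte markers. Of 5 red blood cell markers 4 were listed at 0 in all libraries and Alas2 was at 0.29. WT 3 was the lowest of all libraries for Gng8, Stmn2, Cyp2g1 and Ermn. Cyp2g1 had 46272, 53773 and 28228 normalized counts in WT 1, WT 2 and WT 3.

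The 9 genes also varied with the replicate number. This division was noticed in the expression values, the labels do not say what the number stands for, and the ratios are therefore a description with no test. For 8 of the 9 genes the number 1 library was above both other libraries in all 3 genotypes, where 22% of all tested genes showed that pattern and 21.6% showed its opposite. None of the 9 showed the opposite. The mean ratio of number 1 to the others over the 3 genotypes was 3.14 for Neurog1, 2.00 for Krt5, 1.69 for Sox2 and 1.61 for Neurod1. It was 1.36 for Trp63, 1.28 for Kit, 1.27 for Krt14, 1.25 for Hes6 and 1.12 for Pax6.

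**Figure D3:**
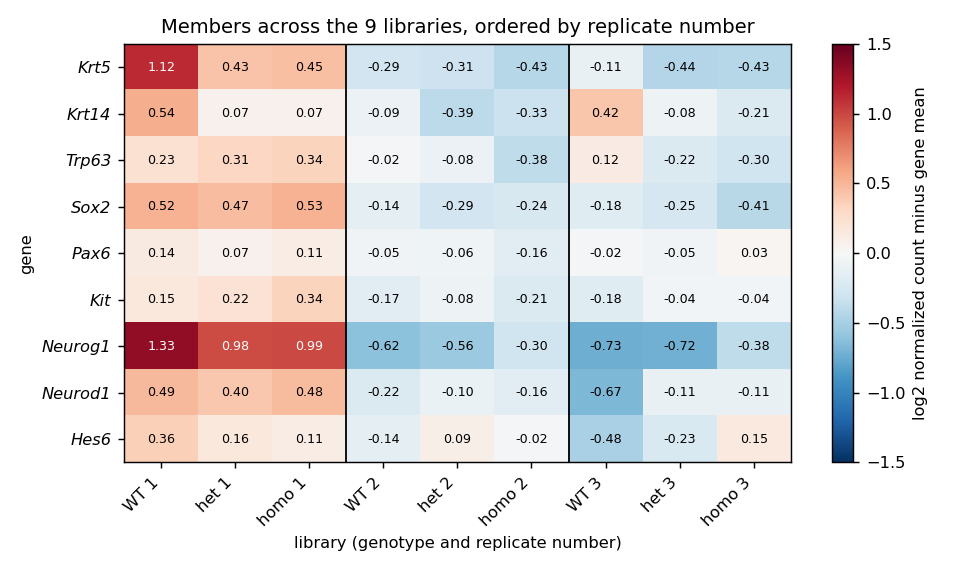
Log2 normalized counts of the 9 genes in each library, centred on the gene's mean over the 9 libraries (colour and printed values), with libraries ordered by replicate number and then genotype. The 3 columns numbered 1 hold positive values for every gene, up to 1.33 for Neurog1 in WT 1, and most values in the other 6 columns are negative.

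The ratio was not the same in each genotype. For Neurog1 it was 4.02 in WT, 3.08 in het and 2.51 in homo, and for Krt5 it was 2.49, 1.75 and 1.84. For Trp63 it was lowest in WT, with a log2 ratio of 0.18 against 0.46 in het and 0.68 in homo. Each of these ratios sets 1 library against 2.

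Genes of the same cells outside the 9 followed the number in part, those named here being chosen after their values were seen. Of the 12 other globose basal and precursor genes, 7 were above in all 3 genotypes. The libraries numbered 1 held on average 2.26 times the level of the others for Cdkn1c, a cell cycle inhibitor. Insm1, a factor of dividing precursors, stood at 1.99 times. Lgr5 (0.94), Tex15 (0.91) and Mybl1 (0.90) of that list were lower on average in the libraries numbered 1. Of the 10 other horizontal basal cell genes, 4 were above in all 3 genotypes, among them Krt15, a basal keratin, at 5.30 times. Krt15 had the largest ratio of these, while Icam1 (0.71) and Cav1 (0.98) were lower on average in number 1. The pattern was seen in 6 of 14 Notch pathway genes, 2 of 9 niche signals and 3 of 8 proliferation genes. Of all tested genes, 22% showed it.

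Markers of some other cells differed by number as well. Of the 7 squamous markers 3 were above in all 3 genotypes, and their sum ranged from 335 to 1461 normalized counts in the libraries numbered 1 and from 82.3 to 374 in the others. The keratin Krt13 ranged from 62.2 to 339 normalized counts in number 1 and from 0 to 6.33 in the others. Of the ciliated markers 3 of 5 were above and 1 below, and their sum ranged from 15014 to 16617 against 10605 to 14338. Of the microvillous and ionocyte markers 3 of 4 were above and 1 below, with sums of 1863 to 2031 against 1255 to 1466. Of the immature neuron markers 4 of 5 were above, with sums of 39588 to 40014 against 28135 to 35491. The mature neuron markers had 0 of 4 above and sums of 125718 to 135852 against 128336 to 145523, and the sustentacular markers had 0 of 5 above and 1 below. The mast cell list had 1 of 5 above and 1 below, and the melanocyte and red blood cell lists had 0 above and 0 below. The part of these cells, and of library depth, in the number 1 pattern of the 9 genes was not tested.

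**Figure D4:**
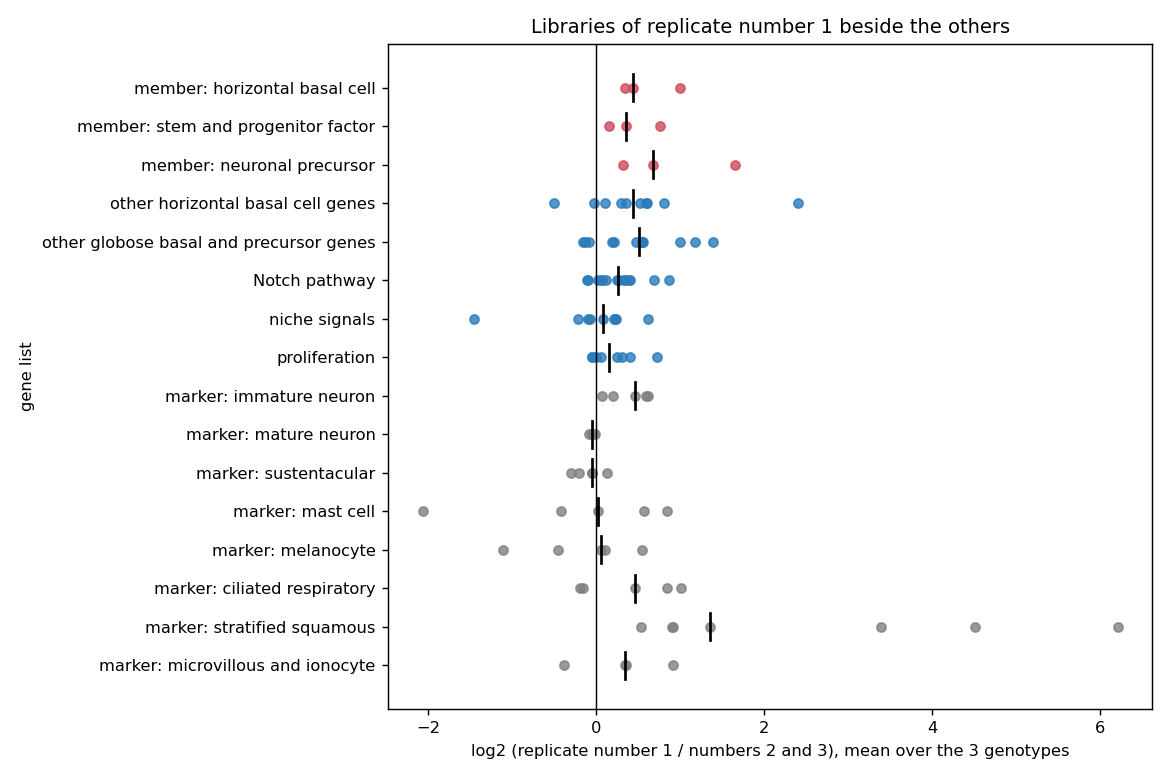
Log2 ratio of the library numbered 1 to the libraries numbered 2 and 3, averaged over the 3 genotypes, for each gene of each list (points; red for the 9 basal and progenitor genes, blue for pathway lists, grey for markers of other cells) with the list median (bar). The 9 genes lie between 0.16 and 1.65, the mature neuron markers near 0, and the stratified squamous markers reach 6.21.

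Genes whose pattern over the 9 libraries was most like that of Krt5, Kit and Neurod1 were found by the root mean square difference of centred log2 CPM, among 13170 genes with a mean of at least 5 CPM. For Krt5 these were the sodium channel subunit Scnn1a (0.16), the homeobox gene Dlx5 (0.16) and the envoplakin gene Evpl (0.16). For Kit they were the myosin kinase Mylk (0.032), the neuropilin Nrp2 (0.040) and Rce1 (0.051). For Neurod1 they were the G protein subunit Gng8 (0.072), Gap43 (0.080), both genes of immature neurons, and the homeobox gene Dlx6 (0.080). These are differences in log2 units over 9 libraries that share depth and replicate number.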

How the data were processed

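Total RNA of whole MOE tissue was made into polyA-selected, directional libraries. Raw read counts, listed by gene symbol, were deposited together with normalized counts, a signal that the authors made by dividing raw counts by size factors. The ratio of both was checked to be constant within each library. The submitters' processing notes name Trimmomatic 0.36, HISAT2 2.1.0, featureCounts of Subread 1.6.2, DESeq2 1.20.0 and the build GRCm38 (mm10). The annotation release, strand option and treatment of multiply mapping reads are not given in the sources used here.

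Raw counts were scaled by TMM and tested by quasi-likelihood in edgeR 4.0.16 (R 4.3.3), with genotype as the term and the spread estimated once over the 9 libraries. A gene needed a sum of 10 counts over the 9 libraries, which 19775 of 24421 had. The biological coefficient of variation was 23.3% (common dispersion 0.0545). A gene was called at a Benjamini-Hochberg adjusted p under 0.05 over all tested genes and a fold change over 1.5. Tests were two-sided. Intervals and SE come from the fitted model. Alternatives were DESeq2 1.42.0, limma-voom (limma 3.58.1), other size factors and filters, only the compared genotypes, the replicate number as a block, a term for number 1, only numbers 2 and 3, and each library left out. The statistics were tested on simulated data. Ratios of number 1 to the others used normalized counts with a pseudocount of 0.5 before the log2.

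Pairing by replicate number was checked by correlating, over 16156 genes, how same-numbered libraries departed from their genotype's mean. For WT with het the correlation was 0.682 (number 1), 0.457 (number 2) and 0.586 (number 3). For het with homo it was 0.807, 0.360 and 0.195. For WT with homo it was 0.532, 0.320 and −0.085. A correlation over 0.1 was required of each pair, which het met with either other group and WT with homo did not. Some libraries of unlike number correlated more, with 0.583 for het 2 with homo 3 and 0.527 for het 3 with homo 2. For WT 2 with homo 3 it was 0.531, and for WT 3 with homo 2 it was 0.275. Between WT and het, each library correlated most with that of its own number. Numbers 2 and 3 thus did not single out matching libraries between homo and the other genotypes, whereas number 1 did. No pair of libraries held the same counts.

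The 9 genes, the gene lists and the tests were chosen with earlier results of these data known. Named besides the 9 are, in each list, the genes with the smallest p and the largest difference in homo against WT at a mean of at least 1 CPM, Taar6 and Taar7a, and the 3 genes most like Krt5, Kit and Neurod1. Further genes in the account of replicate number 1 were chosen after their values were seen. Exon lengths and window uniqueness came from GENCODE M21 on GRCm38, and promoter sequence from RefSeq.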

Additional observations from a re-analysis of the deposited data

How the results depend on the processing

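The 9 genes and the genes of the 5 pathway lists were called 0 times in every comparison under every alternative. Of 704 alternative values for 38 results, 619 kept their direction and side of the threshold, 69 changed sign and 16, all counts over all tested genes, moved by over 1.5 times; the causes were not tested. These counts were, in homo against WT, 4 as reported, 1 with limma-voom, 1 with only the 2 genotypes, 1 to 4 with single libraries left out and 0 with numbers 2 and 3 only. In homo against het they were 1 as reported, 4 with library totals, 4 with no filter, 5 with DESeq2, 3 with the replicate block, 3 with the term for number 1 and 0 with numbers 2 and 3 only.

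With the replicate block, 4 of the 27 tests of the 9 genes had an unadjusted edgeR p under 0.05, against 1 as reported. These were Krt14 (−0.44, 95% interval −0.67 to −0.21) and Krt5 (−0.38, −0.65 to −0.10) in homo against WT, and Krt14 (−0.43) and Krt5 (−0.35) in het against WT. The lowest edgeR p under the block was 0.00198, for Krt14, with an adjusted p of 0.725. The block changed no call among the 9 genes or the pathway lists.

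Signs that changed outside single libraries belonged to small differences. Sox2 in homo against het was −0.0023 with DESeq2 size factors, −0.00013 with no filter, −0.0022 with DESeq2, −0.011 with limma-voom, −0.0085 with the replicate block, −0.0074 with the number 1 term and −0.053 with numbers 2 and 3 only. Pax6 in homo against WT was 0.0012 with library totals. Neurog1 in homo against WT was 0.17 with limma-voom, 0.10 with the replicate block, 0.10 with the number 1 term and 0.34 with numbers 2 and 3 only, and in het against WT 0.039 with the last. Kit in homo against het was −0.0016 with limma-voom and −0.066 with numbers 2 and 3 only, and Neurod1 −0.028 with the last.

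With single libraries left out, most extremes came without a library numbered 1. In homo against WT the log2 difference ranged from −0.81 to 0.15 for Krt5, −0.42 to 0.19 for Sox2, −0.075 to 0.053 for Pax6, −0.062 to 0.24 for Kit, −0.66 to 0.94 for Neurog1, −0.078 to 0.54 for Neurod1 and −0.049 to 0.40 for Hes6. In het against WT it ranged from −0.76 to 0.16 for Krt5, −0.26 to 0.017 for Trp63, −0.38 to 0.19 for Sox2, −0.085 to 0.035 for Pax6, −0.0046 to 0.22 for Kit, −0.96 to 0.80 for Neurog1, −0.10 to 0.52 for Neurod1 and −0.12 to 0.33 for Hes6. In homo against het it ranged from −0.37 to 0.31 for Krt5, −0.14 to 0.090 for Krt14, −0.36 to 0.080 for Trp63, −0.34 to 0.30 for Sox2, −0.042 to 0.087 for Pax6, −0.16 to 0.12 for Kit, −0.45 to 0.89 for Neurog1, −0.21 to 0.21 for Neurod1 and −0.038 to 0.15 for Hes6. Krt14 stayed negative in both comparisons with WT and Trp63 in homo against WT.

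The count of 8 genes highest in number 1 was also 8 with TMM CPM and with library totals, both chosen after seeing the data. There were 3 libraries per genotype, a sex not given per library and an unexplained replicate number. Without a term for the number, the homo against WT intervals of Krt5, Krt14, Trp63, Sox2, Neurog1 and Neurod1 include differences of over 1.5-fold.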
